A study of Mus musculus with 12 samples.

Results

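The livers of male *db*/*db* mice, which become obese and diabetic because they lack a working leptin receptor, were examined 1 day after oral MgH2. The comparison rested on 3 two-color arrays of the 12 in the series, and it covered 12166 genes of the 20283 that could be named on the array. Members were the genes with a probe well above background on each of the 3 arrays in Cy5 and in Cy3, which held for 19671 of 39429 probes. The mice were 8 weeks old, and the treated mice received MgH2 by stomach gavage once a day, at 0.9 mg/kg. MgH2 reacts with water and releases H2 in the stomach. By the methods the control mice received Mg(OH)2, the salt left after that reaction, so both sides of each ratio carried magnesium. RNA of 9 mice a group was combined into 3 pools of 3 mice, and on each array a treated pool in Cy5 was set against a control pool in Cy3. The other arrays, 3 at each time, compared MgH2 with control after 3 and 7 days and drinking water with 0.8 mM H2 with control water after 14 days, in mice of the same strain, sex and age. A log2 ratio is log2 of the treated over the control signal, so that 1 means a doubling in the treated pool and 0 no difference.

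The liver makes cholesterol from acetyl units, builds fatty acids when fed and burns them in mitochondria and peroxisomes when fasting. The sterol response of these genes runs through SREBP-2, the lipogenic response through SREBP-1c and ChREBP, and the oxidative response through PPARα with its coactivator PGC-1α. The comparison addressed which of these genes differ at the earliest time sampled.

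The control pools always carried Cy3, so treatment and dye cannot be told apart in a ratio at 1 time. All 3 arrays of 1 day lay on 1 slide, together with 1 array of 3 days. Ratios of the 3 pools correlated across the tested probes at r between 0.10 and 0.44, and over probes with signal on all arrays the deviations from the group mean were shared by replicate number across days. That sharing lay in the control channel (r from 0.32 to 0.67 over 9 pairs of 1, 3 and 7 days) and not in the treated channel (r from −0.30 to 0.18). The labels give each day a control of its own and state no link. The fit took all arrays as independent, and counts with the replicate number as a block are given beside its own. The arrays of 14 days had their own slide. All 10 hepatocyte markers, *Alb* and *Ttr* among them, passed the background criterion, with a summed signal of 1334000 to 1368000 in the control pools and 1430000 to 1459000 in the treated pools.

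Small differences were spread over many genes after 1 day, and large ones were rare. Of the 19671 probes, limma called 1013 higher and 833 lower in the treated pools at a Benjamini-Hochberg adjusted *P* under 0.05, which is 5.15% and 4.23% of the probes tested and 9.38% together. Counted by gene, with each gene represented by its brightest probe, 661 of 12166 rose (5.43%) and 487 fell (4.0%), together 9.44%. A called probe differed by a median of 0.23 on the log2 scale, or 1.17-fold, and 1 called probe lay beyond 2-fold. The median ratio of all tested probes was 0.00, and the median standard deviation over the 3 arrays was 0.11. The fit shared its estimate of the spread over all 12 arrays. With the 3 arrays of 1 day alone, 99 probes were higher and 2 lower, of which 88 belonged to the bright probes described next. With each channel divided by its total, 710 probes were higher and 1626 lower, so the balance of rises and falls moved with the scaling (54.9% of calls higher against 30.4%). With the replicate number as a block, 1557 were higher and 1409 lower. That block takes the spread shared by replicate number out of the error. Most single calls rested on all 3 pools: of 1148 called genes, 923 lost their call when 1 or another pool was left out. In the gene lists described below, the called members that passed whichever pool was left out were *Got2*, *Cyp2g1*, *Psmd3*, *Psmd7* and *Mrps15* among the falls and *Ugt2b34*, *Atf4*, *Fkbp4*, *Uqcrh*, *Rpl7*, *Rpl23* and *Mrps24* among the rises.

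**Figure D1:**
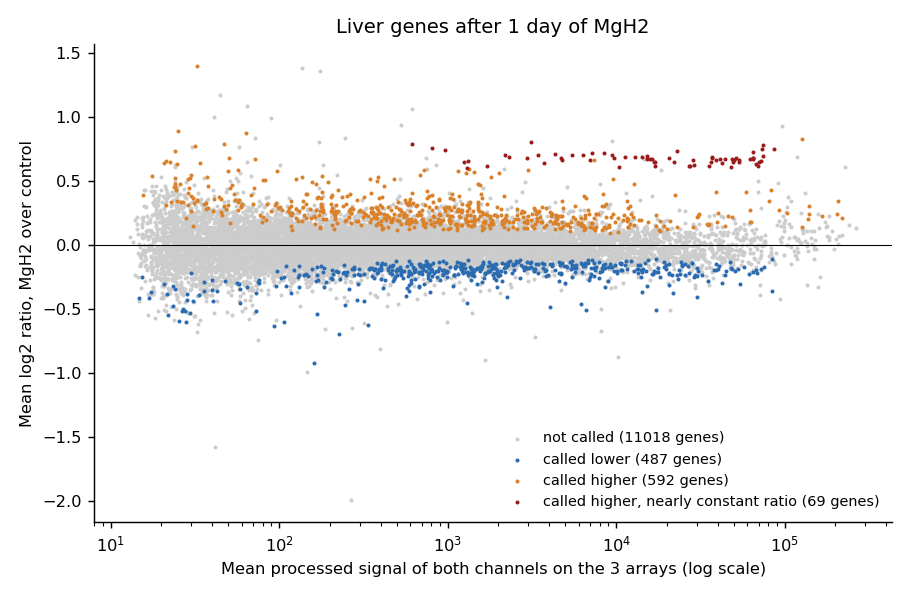
Mean log2 ratio of the treated over the control pools at 1 day for each of the 12166 genes (vertical axis) against its mean signal in both channels (horizontal axis, log scale). Most called genes border the cloud of genes that were not called, and 69 genes with ratios between 0.60 and 0.88 form a narrow band that reaches into the bright probes.

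The rises were headed by a set of probes with nearly the same ratio on every array. Among 122 probes called higher with a mean log2 ratio over 0.6, 98 had a standard error under 0.05, limits chosen after the values were seen. Their mean ratios ran from 0.60 to 0.88 with a median of 0.68, and their median control signal was 13710 against 335.8 for all tested probes. At 14 days, in other mice given H2-water, the same probes had a median of 0.53 and ran from 0.42 to 0.65, and 97 of the 98 were above 0 on all 12 arrays. Of the 70 genes they name, 17 had other tested probes, 23 in all, whose median ratio at 1 day was 0.04, with 3 called higher and 0 lower by limma. Without these probes 915 remained among the higher ones. Of the 12 genes with the largest rise, 6 had such a probe: *Psme3* (0.81), *Atp8a1* (0.79), *Luc7l2* (0.78), *Golga7b* (0.76), *Spag7* (0.76) and *Sp110* (0.75). A further probe of *Luc7l2* read −0.11 and one of *Sp110* read 0.10. *Armcx3*, at 0.77, had a standard error of 0.06 and a mean of 0.60 at 14 days. The part of the dye in these ratios was not tested.

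The largest rise was that of *Akr1c18*, which encodes the enzyme that inactivates progesterone. Its log2 ratios were 1.22, 1.38 and 1.62, the highest mean of all called probes at 1.40 (standard error 0.11, adjusted *P* = 2.9e-05), from signals of 16 to 23 in the control and 50 to 57 in the treated pools. All 3 treated pools were above all 3 control pools. After normexp background correction and loess its mean was 0.48 and still passed. The mean ratio was 1.33 at 3 days, 1.04 at 7 days and 0.45 at 14 days. *Rdh1*, a retinol dehydrogenase, rose with ratios of 1.18, 0.83 and 0.67 (mean 0.89, adjusted *P* = 0.00016) and stood at 0.65 at 14 days. Its signals were dim, at 18 to 20 in the control pools, and after normexp its mean was 0.18 and the call was lost (adjusted *P* = 0.094). *Il17d*, a cytokine gene, read 0.89, 0.72 and 1.03 (mean 0.88), and its mean was 0.92 and 1.03 at 3 and 7 days but −0.04 at 14 days. A second probe of *Il17d* read 0.03 at 1 day, so its 2 probes disagreed. *Rassf4*, a Ras association domain gene, read 0.75, 1.07 and 0.55 (mean 0.79, adjusted *P* = 0.017). *Mup2*, one of the major urinary proteins that male liver secretes in bulk, read 0.30, 1.15 and 1.03 (mean 0.83, adjusted *P* = 0.036). Its near-identical relatives cannot be told apart with certainty, and *Mup20* at 0.93, *Mup5* at 0.69 and *Mup3* at 0.50 did not pass the test. Without 1 of the pools, the adjusted *P* of *Mup2* reached 0.20 and that of *Rassf4* 0.12, and both lost their call. Under normexp 5 of the 12 largest rises moved by over 1.5 times, among them *Il17d* to 0.34, *Rassf4* to 0.30 and *Armcx3* to 0.20, which kept their call.

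The deepest called fall was that of an organic anion transporter. *Slc22a26*, *Slc22a29* and *Slc22a27*, 3 transporter genes of 1 cluster on chromosome 19, had mean log2 ratios of −0.92, −0.63 and −0.60 (adjusted *P* = 0.031, 0.012 and 0.045). On the 3 arrays *Slc22a26* gave signals of 228, 165 and 289 in the control and 114, 113 and 124 in the treated pools, *Slc22a29* read −0.37, −0.97 and −0.55, and *Slc22a27* read −0.29, −0.87 and −0.64. Every pool was below 0, and at 14 days all 3 genes had positive means of 0.51, 0.38 and 0.64. Another member of the cluster, *Slc22a28*, read −0.12, 0.12 and −0.04. Among the other large falls *Ptprc*, the common leukocyte antigen CD45, fell by 0.59 (adjusted *P* = 0.024), *Cxcr6*, a chemokine receptor of T and NKT cells, by 0.53 (0.031), and *Dock10*, a guanine nucleotide exchange factor, by 0.60 (0.011). *Ptprc* read −0.58, −0.31 and −0.87. A second probe of *Dock10* read 0.09. The rest of the 12 largest falls were *Mmd2* (−0.70), *Tuba8* (−0.62), *Ntm* (−0.54), *Epop* (−0.54), *Acot2* (−0.52), a mitochondrial acyl-CoA thioesterase, and *Exoc6* (−0.51). In contrast to the rises, none of these 12 genes was below 0 on all 12 arrays, while 9 of the 12 rises were above 0 on all of them. Under normexp 9 of the 12 falls moved by over 1.5 times, and *Dock10* (−0.15), *Cxcr6* (−0.13), *Acot2* (−0.23) and *Slc22a27* (−0.36) lost their call. Leaving out 1 of the 3 pools ended the call of 10 of the 12 falls and of 2 of the 12 rises, all by limma.

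**Figure D2:**
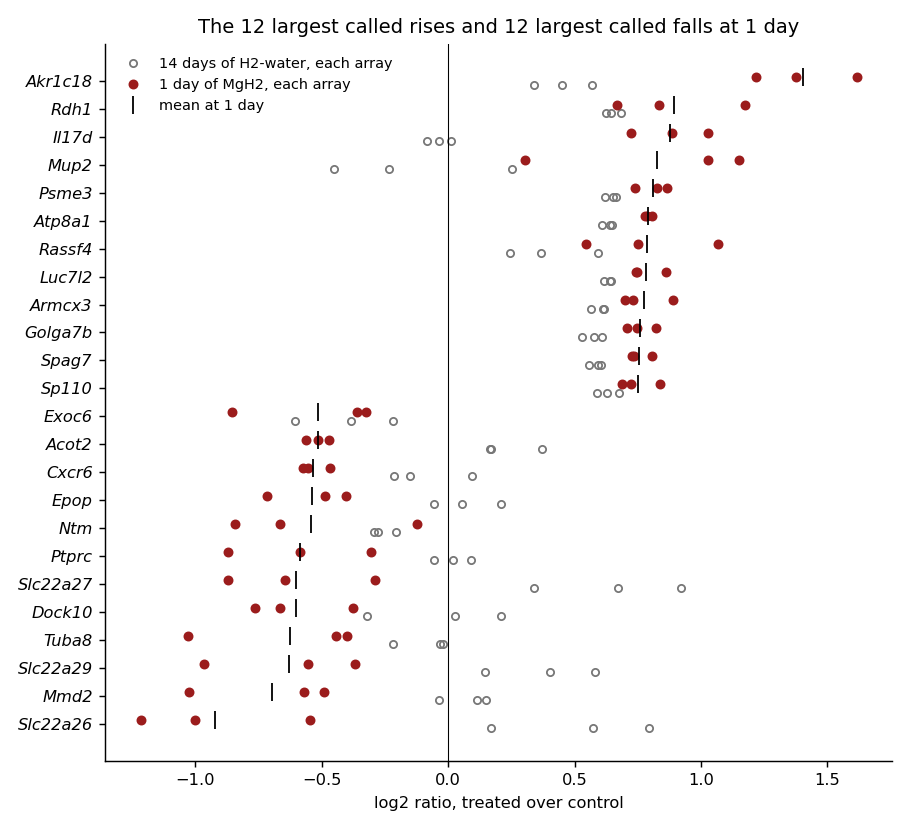
Log2 ratios on each array for the 12 largest called rises (top) and the 12 largest called falls (bottom) at 1 day of MgH2 (filled) and at 14 days of H2-water (open), with a bar at the mean of 1 day. The open points sit beside the filled ones for most of the rises and near or above 0 for most of the falls.

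The genes at the center of the study's question moved little at 1 day. Of the 20 tested, 1 rose and 0 fell, with a median of 0.02, against 5.43% higher and 4.0% lower among all genes. After normexp and loess 2 rose and 0 fell, and with each channel divided by its total there were 0 calls. *Ppargc1a*, which encodes PGC-1α, read 0.02, 0.28 and −0.08 (mean 0.07, standard error 0.17, adjusted *P* = 0.83), so the pools straddled 0. Its other probe had a mean of −0.23. *Cpt1a*, the gate of mitochondrial fatty acid entry, read 0.05, 0.17 and 0.06 (0.22), and *Ppara* read 0.53, 0.00 and −0.27 (0.78). The fatty acid hydroxylases *Cyp4a10*, *Cyp4a31* and *Cyp4a32*, whose near-identical transcripts may share signal, had means of −0.13, −0.19 and −0.08. *Pck1* and *G6pc* of gluconeogenesis had means of −0.17 and −0.18, *Foxo1* of 0.00 and *Akt1* of −0.03. *Akt2*, a kinase of insulin signaling, was the gene that rose, by a mean of 0.12 (adjusted *P* = 0.034), with its other probes between −0.09 and 0.16. It lost its call without 1 pool (adjusted *P* to 0.16), after normexp (0.076) and with division by the total (0.090). The peroxisomal thiolase, enoyl-CoA isomerase and aldehyde dehydrogenase genes *Acaa1a*, *Acaa1b*, *Eci1*, *Eci2*, *Aldh1a1*, *Aldh3a2* and *Aldh1l1* had means between −0.15 and 0.07, and *Thrb* one of 0.12. After normexp *Aldh1a1* had a mean of 0.25 and passed (adjusted *P* = 0.0041). *Fgf21* failed the background criterion and was not tested.

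Cholesterol synthesis was the list with the lowest median at 1 day. All 20 enzymes tested had a mean below 0, with a median of −0.31 against 0.00 for all genes, although only 3 passed the test, each a fall, and each of the 3 lost its call whichever pool was left out (adjusted *P* of 0.10 to 0.17). On the 3 arrays the median of the list was −0.18, −0.30 and −0.37, and 14 of the 20 genes were below 0 on all 3 arrays, against 22.3% of all genes tested. *Dhcr7*, the last enzyme of the pathway, read −0.41, −0.41 and −0.38 (adjusted *P* = 0.032), *Nsdhl* had a mean of −0.32 (0.046) and *Hsd17b7* one of −0.32 (0.042), all 3 acting on sterols late in the pathway. The second probes of *Nsdhl* and *Hsd17b7* read −0.37 and −0.31, and after normexp the adjusted *P* of *Nsdhl* was 0.052. *Sqle*, squalene epoxidase, had the lowest mean at −0.60 with ratios of −0.50, −0.47 and −0.83, but its wider spread left an adjusted *P* of 0.095. At 3 and 7 days of MgH2 the median of the list was below 0 as well, at −0.27 and −0.12. Between 1 day and those days 0 of its 20 genes were called higher and 0 lower. At 14 days of H2-water the list stood on the other side of 0, with all 20 means above 0 and a median of 0.25. None of its genes was among the calls between 1 and 14 days. Sterol sensing and uptake, with *Insig1* at −0.13, held 1 fall of 15, that of *Npc2* (−0.23), a carrier of cholesterol out of lysosomes.

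**Figure D3:**
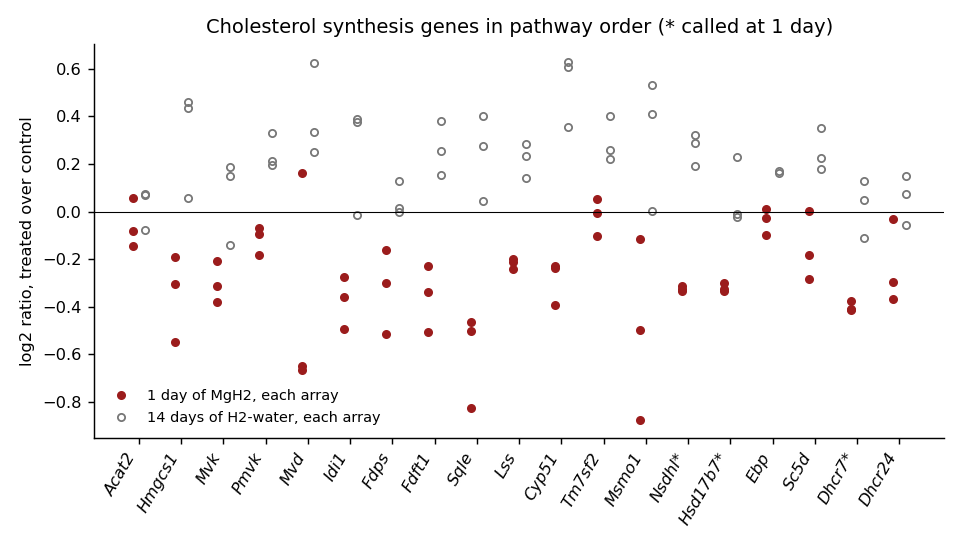
Log2 ratios of 19 of the 20 cholesterol synthesis genes in pathway order on each array at 1 day of MgH2 (filled) and 14 days of H2-water (open). At 1 day most points lay below 0 and at 14 days most lay above it.

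The promoters of the 3 genes that fell are shown because sterol genes are known to be read through SREBP-2 together with the factor NF-Y, which binds the letters CCAAT. The sequences are the 250 bases before a RefSeq start (build GRCm38.p6), read 5′ to 3′ on the gene's strand, with each CCAAT or its reverse complement ATTGG in capitals. Where a gene has several starts, the one with the most matches is shown.
Dhcr7, chr7:143829964-143830213, plus strand: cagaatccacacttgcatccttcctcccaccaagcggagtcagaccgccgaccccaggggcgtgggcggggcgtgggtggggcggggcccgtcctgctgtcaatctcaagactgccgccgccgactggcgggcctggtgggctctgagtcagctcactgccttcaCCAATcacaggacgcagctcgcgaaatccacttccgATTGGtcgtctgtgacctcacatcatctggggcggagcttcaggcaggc
Nsdhl, chrX:72918271-72918520, plus strand: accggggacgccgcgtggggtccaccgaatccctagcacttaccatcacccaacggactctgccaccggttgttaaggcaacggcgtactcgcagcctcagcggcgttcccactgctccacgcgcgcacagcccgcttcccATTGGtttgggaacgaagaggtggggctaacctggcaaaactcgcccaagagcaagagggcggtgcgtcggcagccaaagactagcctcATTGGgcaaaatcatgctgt
Hsd17b7, chr1:169969206-169969455, minus strand: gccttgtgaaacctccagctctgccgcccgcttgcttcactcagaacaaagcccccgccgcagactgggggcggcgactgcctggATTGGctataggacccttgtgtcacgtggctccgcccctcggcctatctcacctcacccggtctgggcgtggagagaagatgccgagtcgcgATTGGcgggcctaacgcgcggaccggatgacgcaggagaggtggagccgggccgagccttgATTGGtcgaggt
The 3 windows held 2, 2 and 3 matches on either strand. Of the 15 list genes with a promoter entry, 14 (93.3%) held the motif at 1 or more starts, and so did 37.5% of 27025 genes with an entry. A sterol element, spelled TCACNCCAC and searched on both strands, was in 1 of the 15 (6.67%) and in 1.22% of all genes. A match to these letters is a description and not a binding site.

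In the mitochondrial β-oxidation list 6 of 24 fell and 1 rose, with a median of −0.08, against 4.0% lower and 5.43% higher among all genes. The called falls were *Hadh* (−0.24), *Hadha* (−0.23), *Acadm* (−0.22), *Decr1* (−0.17), *Acads* (−0.17) and *Acat1* (−0.17), which encode enzymes of the mitochondrial oxidation steps, and *Acsl1*, which activates fatty acids, rose by 0.17. *Hadha* read −0.30, −0.15 and −0.23, so that all pools were below 0, and its mean at 14 days was −0.17. A second probe of *Decr1* read 0.06, and after normexp *Decr1* lost its call (adjusted *P* = 0.22). The PPARα target list, which overlaps this one, had 2 rises and 4 falls among 40 genes and a median of −0.07. After normexp and loess it had 6 rises, 2 falls and a median of 0.00, and with each channel divided by its total 0 rises and 6 falls, so its direction turned with the processing. *Vnn1*, a pantetheinase and PPARα target, rose by 0.20. Of 34 peroxisomal genes *Cat*, catalase, rose by 0.22 (adjusted *P* = 0.0068), and *Pex19* and *Acot8* fell by 0.23 and 0.14, against 3 rises and 2 falls after normexp. *Tfam*, the mitochondrial transcription factor, fell by 0.19 and *Nrf1*, an activator of mitochondrial genes, rose by 0.15. They belong to a PGC-1α network of 24 genes with 2 rises, 1 fall and a median of 0.00. After normexp that network had 0 rises and 1 fall, and *Nrf1* lost its call (adjusted *P* = 0.092).

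Lipogenesis was split between pools. Its median was 0.32, −0.31 and −0.10 on the 3 arrays and −0.07 over the means of its 21 genes. *Fasn*, fatty acid synthase, read 1.01, −0.91 and −0.25, on both sides of 0 (mean −0.05, adjusted *P* = 0.95). The desaturases *Fads1* and *Fads2* fell by 0.40 and 0.34 (adjusted *P* = 0.017 and 0.016), and *Mlxipl*, which encodes ChREBP, rose with ratios of 0.47, 0.20 and 0.31 (mean 0.33, 0.033). The shares over all genes were 5.43% higher and 4.0% lower, for this list and those that follow. Among 25 genes of lipid droplets and triglyceride turnover *Ces1d*, a triglyceride hydrolase, fell by 0.22 (0.0066) and *Cideb* by 0.20, and none rose. After normexp *Cideb* lost its call (adjusted *P* = 0.16). Of 21 apolipoprotein and assembly genes *Apoe* and *Apoc1* rose by 0.24 and 0.23, at 14-day means of 0.29 and 0.17. After normexp that list had 6 rises and 0 falls, and with each channel divided by its total 1 rise and 0 falls. Of 24 bile acid genes *Abcc2*, *Abcg8* and *Slc27a5* rose by 0.23, 0.22 and 0.14, and none fell. With each channel divided by its total *Abcg8* and *Slc27a5* lost their call (adjusted *P* = 0.057 and 0.11), and the list had 1 rise and 1 fall. Gluconeogenesis and magnesium transport had 0 calls by limma among 21 and 12 genes, of which 2 and 2 had an unadjusted *P* under 0.05. After normexp gluconeogenesis had 4 rises and 0 falls, and magnesium transport 0 calls. In insulin and FoxO signaling *Eif4ebp3*, a translation repressor gene, rose by 0.57 (0.010), *Irs1* by 0.41 (0.049) and *Akt2* as given above. A second probe of *Irs1* read −0.05.

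In the list of glutathione, glucuronide and sulfate transferases 9 of 41 fell (against 4.0% of all genes) and 1 rose, with a median of −0.13, and after normexp 6 fell and 4 rose. The falls were all in glutathione *S*-transferases: *Gstm4* at −0.50 (adjusted *P* = 0.011), *Gsta1* at −0.46 (0.039), *Gstm3* at −0.37 (0.036), *Gstm1* at −0.31 (0.048), and *Gstt2*, *Gstz1*, *Gstm7*, *Gsto1* and *Gstk1* between −0.24 and −0.13. *Gstm4* read −0.72, −0.56 and −0.23, *Gstm1* read −0.47, −0.37 and −0.08, and *Gsta1* read −0.33, −0.78 and −0.27. No pool was above 0, and the second probes of *Gstm1*, *Gstm3* and *Gstm4* read −0.36, −0.33 and −0.22, although the Gstm transcripts are alike enough to share signal. After normexp *Gstm1* lost its call (adjusted *P* = 0.15). The means at 14 days were 0.11 for *Gstm1*, 0.01 for *Gstm3*, −0.09 for *Gstm4* and 0.05 for *Gsta1*. The glucuronosyltransferase *Ugt2b34* was the member that rose, by 0.29. *Nqo1*, a target of Nrf2, fell with ratios of −0.27, −0.31 and −0.19 (0.046), beside the rise of *Cat* the only call among 34 antioxidant genes. Of 43 drug-metabolizing cytochrome P450 genes 3 fell, *Cyp2g1* (−0.44), *Cyp2c37* (−0.31) and *Cyp2c50* (−0.22), and 0 rose. After normexp 2 fell and 5 rose, and *Cyp2c50* lost its call (adjusted *P* = 0.24). The split of the P450 list thus turned with the processing, and the antioxidant list then had 6 rises and 2 falls. Of 21 genes for lipid aldehyde removal *Akr7a5* fell by 0.14, and after normexp 2 rose and 1 fell.

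In amino acid breakdown and the urea cycle 7 of 44 genes fell, 0 rose and the median was −0.10, against 4.0% lower and 5.43% higher among all genes. After normexp 6 fell and 3 rose. *Cth* and *Cbs*, the enzymes of transsulfuration, fell by 0.37 and 0.22, and a second probe of *Cth* read −0.45. After normexp *Cbs* had a mean of −0.09 and lost its call (adjusted *P* = 0.39). *Got2*, mitochondrial aspartate aminotransferase, read −0.24, −0.22 and −0.23 (adjusted *P* = 0.0041). *Gls2* fell by 0.23, *Gstz1* by 0.21, *Arg1* by 0.19 and *Asl* by 0.15, the last of these both urea cycle enzymes. Outside the lists *Agxt*, which clears glyoxylate, read −0.46, −0.32 and −0.43 and fell by 0.40 (0.011), a gene named after its values were seen.

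Genes of the protein machinery showed small differences both ways. Against 4.0% lower and 5.43% higher among all genes, 8 of 31 proteasome subunits fell and 0 rose, with a median of −0.06. *Psmd7* read −0.32, −0.28 and −0.17 (mean −0.26) and *Psmd3* −0.24, −0.25 and −0.18 (mean −0.22), and at 14 days their means were −0.30 and −0.13. *Psmd11* and *Psmb7* fell by 0.20 and 0.16. Of 78 cytosolic ribosomal protein genes 10 rose and 2 fell, and of 75 oxidative phosphorylation subunits 12 rose and 6 fell. Division of each channel by its total turned both splits, to 5 higher and 9 lower and to 5 higher and 7 lower. After normexp the splits were 21 higher and 1 lower and 16 higher and 4 lower. The largest of the 10 and 12 rises were *Uqcrh* (0.42), *Rps14* (0.41), *Rpl23* (0.25), *Uqcr10* (0.25), *Ndufb2* (0.24), *Rpl35a* (0.24), *Rpl7* (0.23) and *Ndufb6* (0.20). They stood at 0.14 to 0.33 at 14 days as well, and the other probes of *Rpl23* lay between −0.02 and 0.01. Of 75 mitochondrial ribosomal proteins 6 rose and 9 fell, among them *Mrps24* (0.22), *Mrps9* (−0.22), *Mrps15* (−0.20) and *Mrpl38* (−0.20). In the unfolded protein and amino acid stress list 3 of 27 rose and 0 fell, with a median of 0.09. *Atf4*, the main transcription factor of that response, read 0.40, 0.34 and 0.28 (mean 0.34, adjusted *P* = 0.00065), with a second probe at 0.15, and the chaperones *Dnajc3* and *Canx* rose by 0.24 and 0.17. After normexp *Canx* lost its call (adjusted *P* = 0.10). *Asns*, *Ddit3* and *Chac1*, which Atf4 is known to drive, had means of −0.15, −0.10 and −0.15 and did not pass. Of 16 heat shock genes *Fkbp4* rose by 0.32 and *Hspb8* fell by 0.21, at 14-day means of 0.34 and −0.05.

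**Figure D4:**
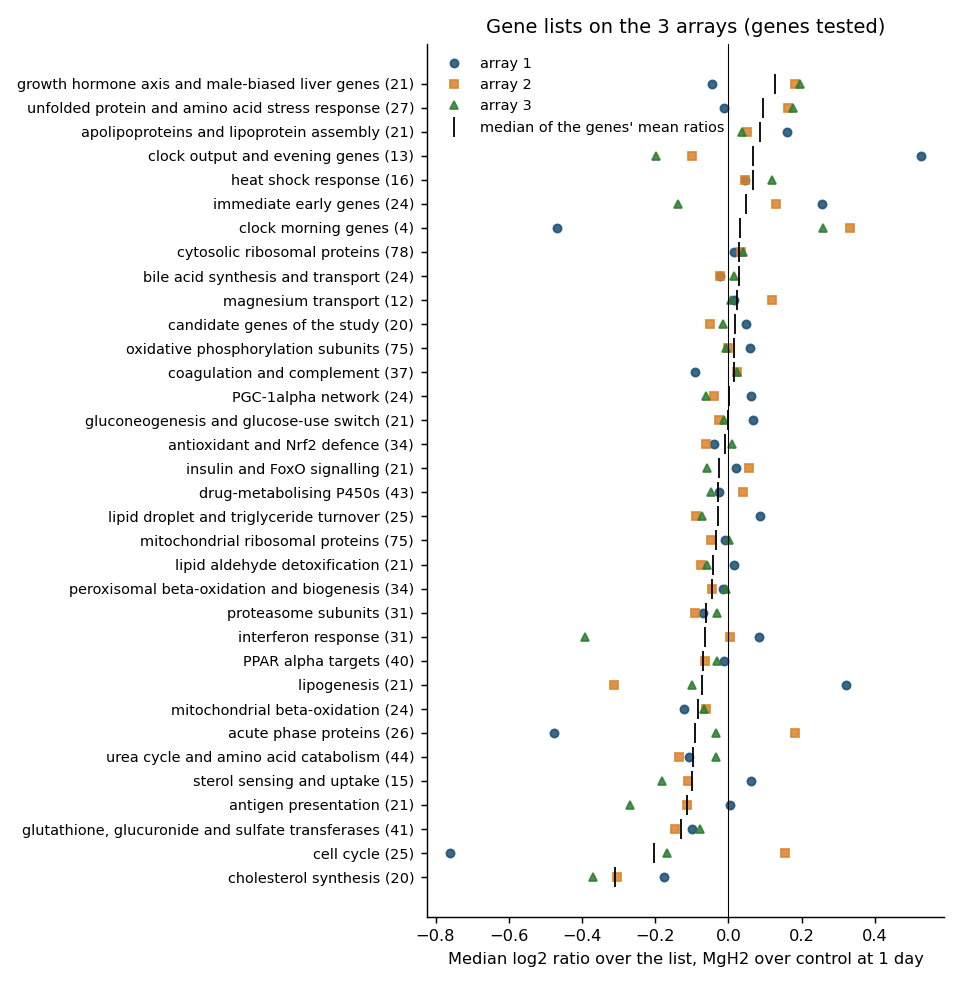
Median log2 ratio of each of 34 gene lists on each of the 3 arrays of 1 day (symbols) and the median of the genes' mean ratios (bar), with the number of genes tested in parentheses. Cholesterol synthesis lay below 0 on all 3 arrays, and cell cycle, acute phase, clock and lipogenesis genes were spread between the arrays on both sides of 0.

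Few markers of other liver cells passed the test. Of 10 Kupffer cell markers tested *C1qb*, a complement gene, fell by 0.25 and none rose, with medians of −0.05, −0.06 and −0.32 on the arrays and a summed signal of 18120 to 21720 in the control and 17660 to 18810 in the treated pools. Fewer cells and less RNA per cell cannot be told apart in such bulk samples. Of the lymphocyte markers 5 of 12 were tested, *Ptprc* among them, while *Cd3e*, *Cd4* and *Nkg7* had means of 0.09, 0.20 and 0.11, and *Cd3d* and *Cd8a* failed the background criterion. Interferon response, antigen presentation, acute phase, cell cycle, immediate early and clock lists had 0 calls by limma, with 4 of 31, 8 of 21, 3 of 26, 1 of 25, 2 of 24 and, for evening and morning clock genes, 0 of 13 and 0 of 4 genes at an unadjusted *P* under 0.05. Neutrophil, red blood cell, endothelial, stellate, bile duct, pancreas, adipocyte and muscle markers had 0 calls too, with 2 of 4, 0 of 7, 1 of 9, 2 of 11, 2 of 5, 1 of 4, 0 of 3 and 0 of 1 at an unadjusted *P* under 0.05. The growth hormone and male-biased list had 0 calls among 21, with 2 at an unadjusted *P* under 0.05. After normexp the acute phase and growth hormone lists had 1 rise each, and antigen presentation and the pancreas markers 1 fall each. The hepatocyte markers had 0 calls by limma, and after normexp 6 of 10 rose and 0 fell. In coagulation and complement *F9* rose by 0.16 and *Serping1* fell by 0.23 among 37, against 5 rises and 0 falls after normexp.

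The largest ratios came with the widest spread between pools. Among the 12166 genes 9 had a mean beyond 2-fold and 1 of them, *Akr1c18*, passed the test; the others, named after their values were seen, were *Sult2a1*, *Sult2a3*, *Hsd3b5*, *Nr4a1*, *Mtus2*, *Xlr3b*, *Slco1a1* and *Serpina4-ps1*. *Sult2a1*, a steroid sulfotransferase, read 0.14, −1.41 and −4.71. Its control signals were 130, 302 and 3917 while its treated signals were 143, 113 and 150, so the spread lay in the control channel. *Slco1a1*, an anion transporter of male liver, read −1.03, 2.81 and 2.30, and *Hsd3b5*, a male-biased steroid dehydrogenase, −0.28, 2.95 and 0.32. *Saa2*, a serum amyloid gene of the acute phase response, read −3.27, 3.28 and 0.07 with a mean of 0.03, its signal being 112300 in control pool 1 and 124400 in treated pool 2 against 12790 in control pool 2 and 11610 in treated pool 1. The cell cycle list had medians of −0.76, 0.16 and −0.17, the acute phase list −0.48, 0.18 and −0.03, and the evening clock genes 0.53, −0.10 and −0.20 with the morning clock genes at −0.47, 0.33 and 0.26. *Cfd*, an adipocyte gene, read 2.61, −0.96 and −0.72 at control signals of 68, 555 and 384. In all 35 genes had ratios more than 2 apart on the log2 scale among the 3 arrays.

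To learn where 1 day stood apart from longer treatment, its ratios were set against those of 3 and 7 days. Of 18991 probes 705 were higher and 616 lower at 1 day (3.71% and 3.24%, together 6.96%), or 1384 and 1231 with the replicate number as a block. In 1052 of these 1321 probes the ratio at 1 day was the nearer to 0. Over the 1321 probes the median size of the mean ratio was 0.10 at 1 day and 0.29 at 3 and 7 days. Over all 18991 probes it was 0.09 and 0.11. Of the lipogenic genes 10 of 20 were higher at 1 day and 0 lower, against 3.9% and 3.55% of all genes, together 7.45%. *Scd1*, stearoyl-CoA desaturase, read 0.24, −0.36 and −0.10 at 1 day and had means of −1.22 and −1.18 at 3 and 7 days (difference 1.13, standard error 0.24, adjusted *P* = 0.029). *Scd3* (1.24), *Pklr* of glycolysis (1.18), the transcription factor gene *Bach2* (1.47) and *Ifi27l2a* of the interferon response (1.28) differed the same way. *Srebf1*, the gene of SREBP-1c, was higher at 1 day by 0.94 and *Mlxipl* by 0.70. Lower at 1 day were *Cyp39a1*, an oxysterol hydroxylase (−1.16, adjusted *P* = 0.0062), *Kiss1* (−1.12), the transporter *Slco1a4* (−1.11) and *Inhbb* (−1.06). *Cyp39a1* read −0.43, −0.28 and −0.21 at 1 day and had means of 0.81 at 3 and 0.89 at 7 days. For these 4 genes and for *Scd1*, *Scd3*, *Pklr*, *Bach2* and *Ifi27l2a* the ratios of 1 day did not overlap those of 3 and 7 days, which the rule that chose them required. For *Ppargc1a* the difference was −0.60 (standard error 0.21, adjusted *P* = 0.10). The slides moved with the days. With the slide in the model, or within the slide that holds all of 1 day and 1 array of 3 days, 0 probes passed in limma, with 2003 and 1968 at an unadjusted *P* under 0.05. Within that slide *Scd1* differed by 0.78, *Pklr* by 0.85 and *Cyp39a1* by −0.84, while the differences of *Slco1a4* and *Inhbb* shrank to −0.52 and −0.41, all set against 1 array of 3 days and with adjusted *P* values of 0.24 to 0.61.

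**Figure D5:**
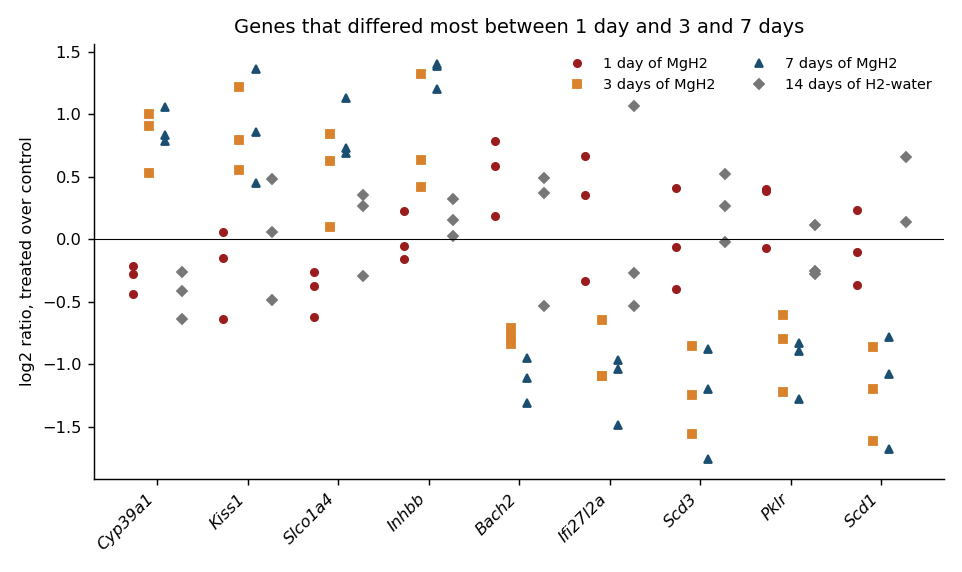
Log2 ratios on each array for 4 genes far below and 5 far above 3 and 7 days of MgH2 at 1 day, with 14 days of H2-water beside them. The points of 1 day lie nearer to 0 than most of those of 3 and 7 days.

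Some differences were larger at 1 day than later. From the 11845 genes of the contrast with 3 and 7 days, a set of 37 rises and 58 falls at 1 day was drawn. At 1 day they lay farther from 0 than at 3 and at 7 days, and they passed that contrast in the same direction. This rule was chosen after the values were seen. In all 883 genes (7.45%) passed that contrast. *Epop*, a subunit linked to Polycomb and Elongin, read −0.49, −0.40 and −0.72 at 1 day and had means of 0.53 and 0.46 later (difference −1.03, adjusted *P* = 0.0062). *Agxt* (−0.56), *Cth* (−0.57) and *Gstm4* (−0.47) were lower at 1 day than later as well, and so, outside that set, was *Gsta1* (−0.90), which lay above 0 at 3 and 7 days. In the urea cycle and amino acid list 13 of 44 were lower at 1 day than later and 0 higher. In the stress response list 5 of 27 were higher and 0 lower. Among all genes 3.9% were higher and 3.55% lower. Among the rises *Lum*, the proteoglycan lumican of stellate cells, read 0.36, 0.38 and 0.42 (mean 0.39) against −0.08 and −0.06 at 3 and 7 days (difference 0.46, 0.015). *Ces3a*, a carboxylesterase, read 0.20, 0.56 and 0.54, and *Dkk3*, a secreted Wnt modulator, 0.52, 0.32 and 0.50. The stellate cell list, which does not include *Lum*, had 3 of 10 higher at 1 day than later and 0 lower. Day and slide moved together in these values too. Within the slide shared with 1 array of 3 days the difference was −1.10 for *Epop*, −0.27 for *Agxt*, −0.39 for *Cth* and −0.38 for *Gstm4*. It was −0.89 for *Gsta1*, 0.29 for *Lum*, 0.53 for *Ces3a* and 0.53 for *Dkk3*.

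Against 14 days of H2-water, 8 of 18744 probes were higher and 6 lower at 1 day (0.0427% and 0.032%, together 0.0747%), with 2335 at an unadjusted *P* under 0.05. With the replicate block 106 were higher and 52 lower. *Il17d* differed by 0.91 and *Mpzl3* by 0.89 (adjusted *P* = 0.010 for each). *Lepr*, the leptin receptor gene whose product is defective in these mice, read 0.22, 0.07 and 0.10 at 1 day and −0.44, −0.48 and −0.43 at 14 days, a difference of 0.58 (0.017). *Hcn2* was higher by 0.39, and *Zfp580* lower by a difference of −0.55. All arrays of 14 days lay on their own slide and were read by another version of the scanner software, so slide and treatment cannot be told apart. Among all probes called at 1 day 88.2% had the same sign at 14 days, against 65.7% of all tested probes. The means correlated with r = 0.31 over 19619 probes that share dye orientation and probe sequence.

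A few probes were above background in 1 channel only. Of 39429 probes there were 54 such in the treated channel and 30 in the control channel, on all 3 arrays. A gene name was given to 30 and 18 of them. Among the named probes *Ppef2*, *Nmrk2*, *Fam3b*, *Trim54* and *Cdh16* had the largest bounds, at least 3.69, 3.61, 3.12, 2.93 and 2.79-fold higher in the treated pools. For these bounds the control pool was put at the lowest signal well above background. *Nmrk2*, a nicotinamide riboside kinase, had signals of 36.3, 39.9 and 43.5 in the treated pools and 2.76 to 5.78 in the control pools. All 5 were above background in the treated channel on 6 of 6 arrays of 3 and 7 days and in the control channel on 0 of 6. At 14 days, in mice given H2-water, the treated channel was above background on 2 or 3 of 3 arrays and the control channel on 0 or 1. The treated pool carried the same dye on every array, so treatment and dye cannot be told apart. Above background in the control channel alone were *4833422C13Rik*, *Capn12*, *Col4a4*, *Tfec* and *Cxcr6*, at least 1.85, 1.76, 1.59, 1.56 and 1.51-fold lower in the treated pools. The side of each of these probes was set by the rule that chose it. The probe of *Cxcr6* listed here is not the one called lower above.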

How the data were processed

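Liver RNA pools were hybridized to two-color Agilent arrays, read by the authors with Feature Extraction (10.10.1.1 for the gavage arrays and 10.7.3.1 for 14 days, per the file headers). The deposited intensity is background-corrected and dye-normalized within an array by the authors' software. The log10 ratio and the log2 ratio of the deposited series table restate it. The raw median signal and median background intensity values deposited by the authors served for normexp (offset 50) with loess. The deposited columns were not scaled between arrays here.

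Control and flagged spots were left out (160 to 181 of 43020 spots flagged at 1 day, 0 saturated), spots of a probe averaged, and log2 of Cy5 over Cy3 tested with limma 3.58.1 in R 4.3.3, two-sided, over all 12 arrays in 4 groups. A probe enters where over 0.5 of its spots are well above background on every array compared. Adjustment is by Benjamini-Hochberg over all probes tested. Between 52.6% and 53.5% of spots were above background in both channels at 1 day. The number of arrays limits the precision. RefSeq names matched 26761 probes (67.9%). A gene is its brightest tested probe. The replicate number was used as a block in an alternative fit. Against control this block takes the spread shared by replicate number out of the error, so its larger counts are not a stricter test. Across 1, 3 and 7 days every one of 9 correlations of ratio deviations by replicate number exceeded 0.1 (0.37 to 0.66). With 14 days r was 0.15 to 0.27. Whether the mice of a pool were shared between days is not given in the labels, so *P* values measure the spread between pools.

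Named were the 12 largest called rises and falls with 1 sign on all arrays, the study's candidate genes, up to 4 called members of each of 34 lists and 11 cell type lists, 5 genes each way in each contrast and 5 bounds each way. The members and lists were chosen with earlier results of these data known. Genes of the rule that are left out are not reported here. The fit was also run on simulated data with every array drawn independently. That run could not test the deviations shared by replicate number or the slides that moved with the days. Alternatives are given below.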

Additional observations from a re-analysis of the deposited data

Results flagged for a closer look

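Differences between times of treatment, tested as a contrast within the limma fit, were singled out here. At 1 day 705 probes were higher and 616 lower than at 3 and 7 days of MgH2. The log2 difference was −1.16 for *Cyp39a1*, −1.12 for *Kiss1*, −1.11 for *Slco1a4* and −1.06 for *Inhbb*, and it was 1.47 for *Bach2*, 1.28 for *Ifi27l2a*, 1.24 for *Scd3*, 1.18 for *Pklr* and 1.13 for *Scd1*. Time and slide moved together in these values, and their part was not tested beyond the values within 1 slide given above.

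Against 14 days of H2-water 8 probes were higher and 6 lower. The difference was 0.91 for *Il17d*, 0.89 for *Mpzl3*, 0.58 for *Lepr*, 0.39 for *Hcn2* and −0.55 for *Zfp580*.

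The medians of 3 lists lay below 0 on every array of 1 day and above 0 on every array of 14 days. They were −0.31 at 1 day for cholesterol synthesis, −0.071 for PPARα targets and −0.045 for peroxisomal genes, and for these lists the difference was not tested. At 3 and 7 days of MgH2 the medians were below 0 too, at −0.27 and −0.12 for cholesterol synthesis. They were −0.013 and −0.031 for PPARα targets and −0.038 and −0.042 for peroxisomal genes. After normexp and loess the medians of PPARα targets and peroxisomal genes at 1 day were 0.0042 and 0.0077, above 0.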

How the results depend on the processing

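Without 1 of the 3 pools of 1 day, 313 to 464 probes were higher and 109 to 332 lower than control, the lowest counts being those without pool 2. Without the filter on dim probes the counts were 470 and 244, with the 3 arrays alone 99 and 2, with the slide as a random block 1578 and 1454, and with each channel divided by its total 710 and 1626. The methods' t-test gave 1462 higher and 1444 lower unadjusted and 50 and 14 after Benjamini-Hochberg adjustment. With the replicate number as a block there were 1557 and 1409 at 1 day and 106 and 52 against 14 days. Against 3 and 7 days that block gave 1384 and 1231, or 1504 and 1251 with the 9 gavage arrays alone, chosen after seeing the data. Leaving out the 98 probes of nearly constant ratio was also chosen after seeing the data.

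Against 3 and 7 days, leaving out an array gave 177 to 737 higher and 104 to 686 lower. Without pool 1, 2 or 3 of 1 day there were 202, 177 and 177 higher and 137, 104 and 148 lower, without 3 days replicate 2 332 and 272, without 7 days replicate 1 510 and 358, and without 7 days replicate 3 344 and 262. No filter gave 33 and 28, the 9 arrays alone 392 and 321, and the slide as a fixed block or a single slide 0 and 0.

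Against 14 days, leaving out an array gave 0 to 8 higher and 0 to 2 lower, with 0 and 0 without any 1 array of 14 days or pool 3 of 1 day (limma, 1632 to 2197 probes at an unadjusted *P* under 0.05). Centering on the median gave 15 higher, no filter 45 and 22, normexp with loess 55 and 35, division by the total 4 higher, and the 6 arrays alone 0 and 0 (2339 unadjusted). No value given here changed sign with a call. Of 101 named calls at 1 day 91 were lost with the 3 arrays alone, 62 without the filter, 21 after normexp, 9 with division by the total and 54 to 67 without 1 pool. The few arrays and the fixed dye orientation limit all values.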
